A study of Homo sapiens with 6 samples.

Results

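The numbered ZNF genes are the zinc finger genes named ZNF and a number, with at most a single letter behind it. They were taken by symbol from the authors' deposited table of genes that differed between shikonin-treated and untreated MDA-MB-231 cells, and 213 of the 7150 listed genes had such a symbol. MDA-MB-231 is a human triple-negative breast cancer line of mesenchymal shape. The compared groups were 3 libraries from untreated wild-type cells and 3 from wild-type cells given 0.5 µM shikonin, a plant naphthoquinone, for 24 h (the labels write the unit as µm, read here as micromolar). Whether libraries of 1 group stem from different cultures is not labelled, and their spread, on which the p-values rest, may be technical. A vehicle for the controls was not named in the sources used here. Neither the labels nor the header name the reference group of the fold changes, and the authors' mark "up" is read here as higher in shikonin.

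Most ZNF proteins bind DNA through a row of C2H2 zinc fingers, each a short loop in which a pair of cysteines and a pair of histidines hold a zinc ion. Many also carry an N-terminal KRAB box, which recruits the corepressor TRIM28 (KAP1) and through it the histone methyltransferase SETDB1, and such proteins silence transposable elements. The genes multiplied by tandem duplication and sit largely in clusters on chromosome 19. Other members have no KRAB box and act as ordinary activators, as repressors, or in RNA processing and ribosome assembly.

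The finger itself is shown because it defines the family, and because its repetition makes the genes alike in sequence. The lines below give 84 coding bases from the most raised member (ZNF57), its raised neighbour ZNF77, and 2 strongly lowered members (ZNF8 and ZNF81), from GENCODE 29 transcripts (GRCh38), 5′ to 3′ on the coding strand. The capitals are the codons of the cysteines and histidines that hold the zinc, and the lower-case end is the linker to the next finger.
ZNF57: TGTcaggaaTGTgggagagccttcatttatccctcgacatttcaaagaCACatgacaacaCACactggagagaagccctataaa
ZNF77: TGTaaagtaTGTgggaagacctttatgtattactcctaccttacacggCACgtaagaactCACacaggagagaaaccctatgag
ZNF8: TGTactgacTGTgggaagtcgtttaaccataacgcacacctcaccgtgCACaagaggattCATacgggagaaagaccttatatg
ZNF81: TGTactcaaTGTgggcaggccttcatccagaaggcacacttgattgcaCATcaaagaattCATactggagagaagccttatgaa
The 6 pairs of these fingers had from 52.4% (ZNF57 and ZNF8) to 69.1% (ZNF8 and ZNF81) of bases in common. The pairs of like direction had 69.1% (ZNF8 and ZNF81) and 67.9% (ZNF57 and ZNF77) in common, and the mixed pairs at most 65.5% (ZNF77 and ZNF8). So few picked fingers cannot tell whether likeness goes with direction. The fingers shown are each gene's first of this spacing with the typical linker, so they are not matched positions of 1 ancestral finger.

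The table holds 0 columns of per-sample values, so neither replicate values nor library depth can be shown, and levels are given as implied group means solved from the authors' mean normalized count and fold change. Listed genes all have adjusted p-values under 0.05 and changes of more than 1.5-fold. About 14255 genes were tested, of which 50.2% were listed, and an unlisted ZNF gene either missed these thresholds or was not tested. GENCODE 29 holds 509 protein-coding genes with a numbered ZNF symbol, of which 210 (41.3%) were listed against 34.7% of all annotated coding genes. The other 3 members are transcribed pseudogenes. Of the markers fixed for the line, the mesenchymal genes VIM, CAV1 and SPARC were listed as higher and ZEB1 as lower, and levels of unlisted markers such as CD44 cannot be checked. Luminal markers were listed too: KRT8, KRT18, EPCAM and FOXA1 as higher and ERBB2 as lower. Of markers of other cells, PECAM1 and ALB were listed as higher (implied shikonin means of 284 and 23.2 normalized counts), and their part in the ZNF values was not tested.

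Shikonin-treated cells had lower RNA of most listed ZNF genes. The authors' deposited table gave 154 members as lower and 59 as higher, or 72.3% lower, while over all listed genes 49.2% were lower and 50.8% higher. With the implied totals of all listed genes set equal in both groups, which takes 0.39 off every log2 fold change, the members past the fold threshold were 154 lower and 31 higher (16.8% higher, against 40.5% of all listed genes). The median log2 fold change was -0.93 for members and 0.60 for all listed genes per the authors' deposited table. Since no listed gene lies between the thresholds, such a median mainly tells which side holds more genes. On each side the sizes were close to those of other genes: the lower members had a median of -1.16 against -1.11 for all lower genes, and the higher members 1.08 against 1.22. At least 2-fold lower were 98 members (46.0%, against 29.2% of listed genes), and at least 2-fold higher were 31 (14.6%, against 32.7%). In bulk RNA, fewer cells that express a gene and less of its RNA per cell cannot be told apart. The 95% interval of the fold, given in brackets from here on and taken from the authors' standard error, lay wholly beyond 2-fold for 31 lower and 16 higher members.

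**Figure D1:**
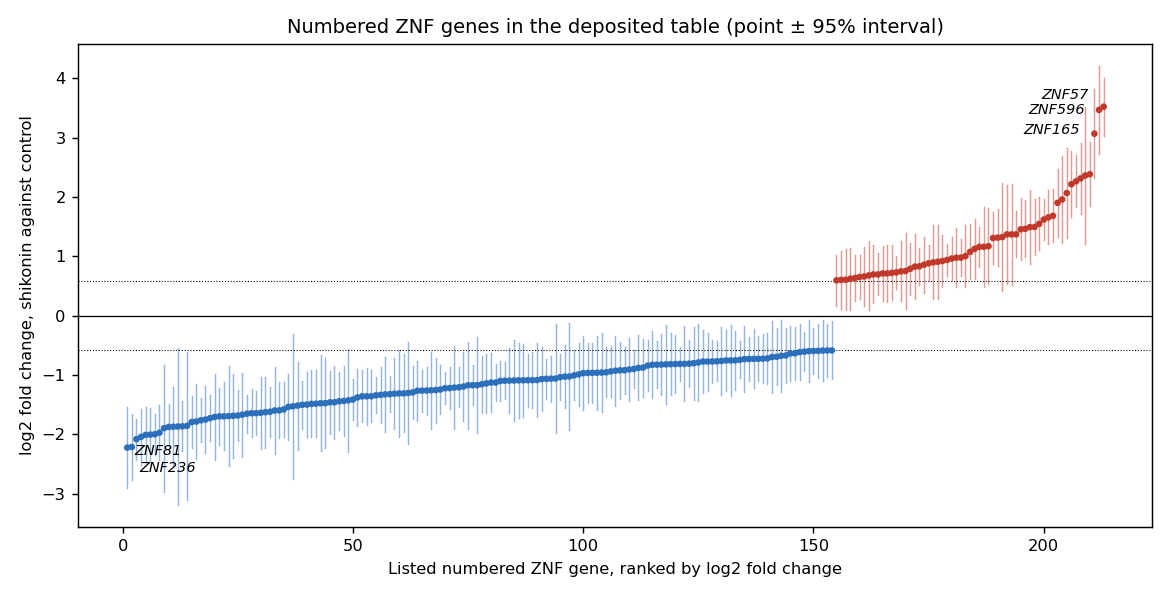
Each point is 1 of the 213 listed numbered ZNF genes, ranked by its log2 fold change per the authors' deposited table, with the 95% interval as a line and the fold threshold of 1.5 as dotted lines. The 154 lower genes (blue) reach -2.22 and the 59 higher genes (red) reach 3.52, so the falls are more frequent and the largest rises are larger.

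The ZNF messages were mostly of low abundance. Their median mean normalized count was 186, from 19.2 (ZNF852) to 2299 (ZNF358), against a median of 591 for all listed genes. The standard errors were wider, with a median of 0.25 log2 units against 0.19. An adjusted p below 0.001 was reached by 137 members (64.3%), against 83.2% of all listed genes. The median mean count was 184 in higher and 196 in lower members, and Spearman's rho between mean count and log2 fold change was 0.05 across 210 coding members, which are not independent replicates.

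The largest rises were more than 8-fold and belonged to 3 genes. ZNF57, a KRAB-type gene, rose 11.5-fold (95% interval 8.17–16.1; adjusted p = 5.20e-43) per the authors' deposited table, from an implied mean of 35.3 to 405 normalized counts. It lies on chromosome 19 from 2900898 to 2918476 (GRCh38, GENCODE 29) and has 4 exons. ZNF596, on chromosome 8, was 11.05-fold higher (6.61–18.5) per the authors' deposited table, from an implied 12.5 to 138. ZNF165, a SCAN-type gene known as a cancer-testis antigen, was 8.37-fold higher (4.99–14.03) in that table, from an implied 15.5 to 129. These 3 were the members at least 8-fold higher.

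Further members rose 3.73- to 5.22-fold, among them ZNF365, described below, and ZNF684, at 3.88-fold (2.34–6.45) per the authors' deposited table and named after its values were seen. ZNF503, a repressor known to promote growth of mammary epithelium, rose 4.80-fold (3.54–6.51; adjusted p = 1.40e-22) per the authors' deposited table, from an implied mean of 152 to 731, the highest shikonin level of this group. ZNF467 and ZNF92 were 5.22-fold (3.58–7.59) and 4.96-fold (3.28–7.51) higher per the authors' deposited table. ZNF77 was 4.64-fold (3.16–6.82), ZNF547 4.19-fold (2.47–7.09) and ZNF425 3.73-fold (2.51–5.55) higher per the authors' deposited table. The intervals of ZNF503, ZNF467, ZNF92 and ZNF77 overlap, so their order is not resolved.

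The 8 members whose intervals lay farthest on the lower side were close together, between 3.92- and 4.67-fold. ZNF106, which encodes an RNA-binding protein, fell 4.23-fold (3.33–5.36; adjusted p = 7.59e-31) per the authors' deposited table, from an implied mean of 1532 to 362 normalized counts. ZNF609, known to work with the cohesin loader NIPBL, was 3.99-fold lower (3.14–5.08) per the authors' deposited table, from an implied 1328 to 333. ZNF445, which helps to keep imprinted genes silent, was 4.12-fold lower (2.97–5.71) and ZNF292 3.92-fold lower (2.85–5.41) per the authors' deposited table. ZNF81, on the X chromosome, had the largest fall at 4.67-fold (2.90–7.50) per the authors' deposited table, with an implied mean of 149 in control and 32.0 in shikonin. ZNF236 was 4.63-fold (3.15–6.82), ZNF8 4.01-fold (2.92–5.501) and the pseudogene ZNF252P 4.02-fold lower (2.91–5.56) per the authors' deposited table. The intervals of these 8 genes overlap.

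Of 38 numbered ZNF genes in a list of known roles, 6 were higher, 12 lower and 20 not listed. The share listed was 47.4%, against 50.2% of all tested genes and 41.3% of annotated coding ZNF genes. The list was not limited to tested genes. Of its listed genes 66.7% were lower, against 72.3% of all 213 members and 49.2% of all listed genes. The higher genes include 3 of the ribosome and nucleolus. ZNF593, an assembly factor of the large ribosomal subunit, was 2.11-fold higher (1.53–2.90) per the authors' deposited table. All of its exon bases overlap another annotated gene, so its reads are uncertain. ZNF622, which acts late in maturation of the same subunit, was 1.78-fold (1.44–2.20) and the nucleolar ZNF330 1.84-fold (1.49–2.28) higher per the authors' deposited table. With equal implied totals ZNF593 kept a log2 fold change of 0.68, while ZNF622 (0.44) and ZNF330 (0.49) fell below the fold threshold. ZNF143, an activator at the promoters of many housekeeping and small nuclear RNA genes, rose 2.58-fold (1.97–3.38; adjusted p = 3.14e-11) per the authors' deposited table. ZNF473, a part of the machinery that processes histone messages and named after its values were seen, was 3.07-fold higher (2.41–3.91) per the authors' deposited table.

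The 12 lower genes of this list include regulators of chromatin and of cell identity. Their mature transcript lengths, defined below, ran from 4197 (ZNF827) to 13475 nt (ZNF268). Those of the higher genes of the list ran from 675 (ZNF593) to 4173 nt (ZNF365). The transcript with the longest coding sequence of ZNF365 has 1389 nt. The part of length in this split was not tested. ZNF592, ZNF687 and ZNF532, whose proteins form a complex with the chromatin reader ZMYND8, were 2.40-fold (1.88–3.07), 2.09-fold (1.66–2.64) and 1.65-fold (1.22–2.22) lower per the authors' deposited table. ZNF148, a factor that binds GC-rich promoters, was 3.12-fold lower (2.41–4.04) and ZNF318, a nuclear regulator of immunoglobulin message processing in B cells, 3.39-fold lower (2.63–4.38) per the authors' deposited table. ZNF638, which links the HUSH silencing complex to unintegrated retroviral DNA, was 2.66-fold lower (2.09–3.40) per the authors' deposited table. ZNF217, an oncogene amplified in breast cancers, was 1.70-fold lower (1.35–2.16; adjusted p = 2.71e-05) per the authors' deposited table, from an implied mean of 1568 to 920. ZNF24 was 1.76-fold (1.44–2.15), ZNF462 1.92-fold (1.43–2.57), ZNF827 1.71-fold (1.22–2.40) and ZNF268 2.13-fold lower (1.46–3.12) per the authors' deposited table. ZNF91, which represses SVA and LINE-1 elements, was 1.95-fold lower (1.27–2.99), while ZNF274, which brings SETDB1 to the ends of ZNF genes, was 1.66-fold higher (1.36–2.02) per the authors' deposited table. With equal implied totals ZNF274 stood at a log2 fold change of 0.34, below the fold threshold. ZNF365, known for protecting replication forks, was 5.13-fold higher (2.31–11.4) per the authors' deposited table, but from an implied control mean of 8.80, and every 50-base word of its reference transcript also occurs in another annotated gene. Among the 20 genes of the list that were not listed by the authors were ZNF703, ZNF281, ZNF263 and ZNF598.

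The most abundant members went both ways. ZNF358, with the highest mean count, rose 1.92-fold (1.59–2.31) per the authors' deposited table, from an implied 1577 to 3021. ZNF580 was 2.23-fold (1.77–2.81) and ZNF511 1.97-fold (1.59–2.44) higher per the authors' deposited table. With equal implied totals ZNF358 (0.54 on the log2 scale) and ZNF511 (0.584) fell below the fold threshold. Other genes overlap 46.8% of the exon bases of ZNF511 and 34.4% of those of ZNF358, so both values are uncertain. ZNF664 fell 2.33-fold (1.94–2.81) per the authors' deposited table, from an implied 2185 to 936. The members nearest the fold threshold were ZNF140, 1.51-fold higher (1.13–2.03), and ZNF197, 1.501-fold lower (1.07–2.10), per the authors' deposited table, and genes just outside it are not listed.

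Within the family, members with shorter transcripts were more often higher. Each gene was assigned the length of its longest principal transcript in GENCODE 29, and listed coding genes were cut into quartiles of that length. In the quartile of shortest transcripts, up to 1751 nt, 10 of 10 ZNF genes were higher, as were 96.2% of other listed coding genes. These were ZNF222, ZNF296, ZNF428, ZNF487, ZNF511, ZNF524, ZNF580, ZNF581, ZNF593 and ZNF622. With the transcript of longest coding sequence instead, the shortest quartile held 7 ZNF genes, all higher: ZNF2, ZNF222, ZNF365, ZNF428, ZNF524, ZNF581 and ZNF593. From 1752 to 3293 nt, 38 of 69 ZNF genes (55.1%) were higher against 77.0% of other genes. From 3294 to 5536 nt, 10 of 73 (13.7%) were higher against 22.4%. Of the 58 longest, 1 was higher (1.72%, against 7.18% of other genes). That gene was ZNF555, whose 8557 nt transcript was 1.77-fold higher (1.22–2.58) per the authors' deposited table, or 0.43 on the log2 scale under equal implied totals. At the other end, the shortest lowered transcripts were those of ZNF641 (1823 nt) and ZNF805 (1884 nt), named after their lengths were seen. ZNF641 depends on the transcript taken, since the one with its longest coding sequence has 7819 nt.

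**Figure D2:**
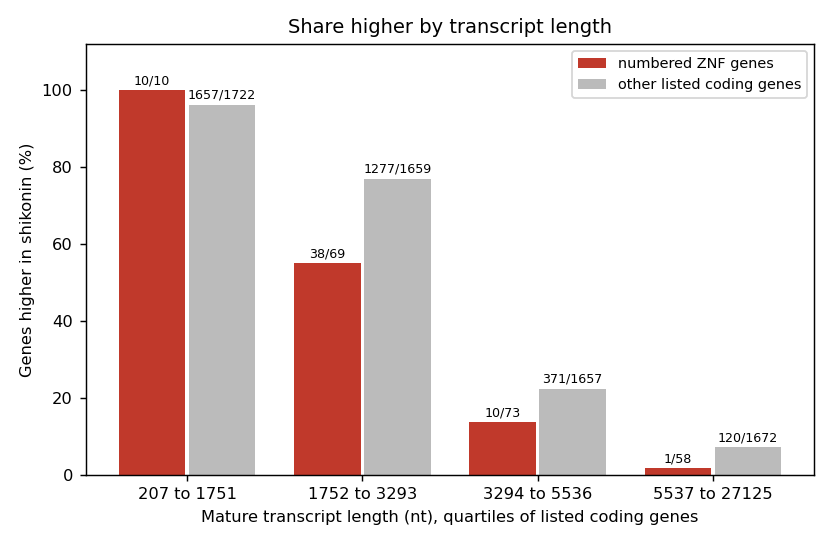
Bars give the percentage of genes higher in shikonin in each quartile of mature transcript length (nt) of the listed coding genes, for the 210 coding ZNF genes (red) and the other listed coding genes (grey), with counts above the bars. In the ZNF genes the share drops from 100% to 1.72%, and it lies below that of other genes in the 3 quartiles of longer transcripts.

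The listed members had longer messages than other listed genes, and few short ones. The median mature length was 4005 nt for members and 3190 nt for other listed genes. It was 2478 nt for the higher members. Across the 210 coding members Spearman's rho of log2 fold change with mature length was -0.56, and -0.70 across the 6710 other coding genes. These are descriptions, since genes are not independent replicates. Coding length gave a rho of -0.33 in members, and genomic span -0.26. Had each listed coding ZNF gene been higher as often as other listed coding genes in the same twentieth of length, 38.5% would have been higher. Of these members 28.1% were higher. The corresponding figure with the transcript of longest coding sequence was 38.1%. With 10 bins of mean count in place of length, the figure was 51.7%. In the quartile of lowest mean counts, 34 of 120 ZNF genes (28.3%) were higher, against 66.5% of other coding genes. No test was made of these differences, and what other property goes with them was not tested.

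**Figure D3:**
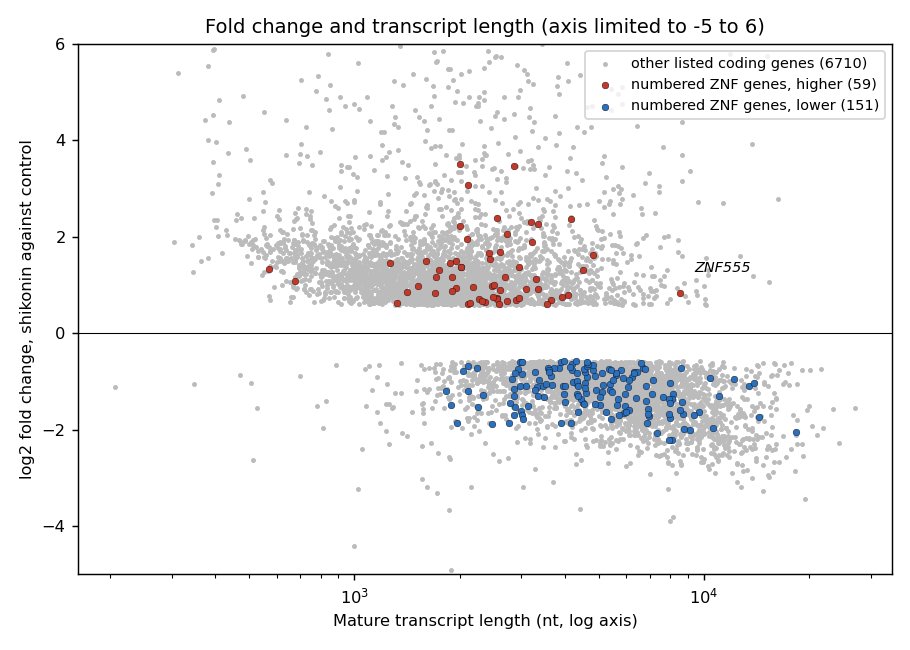
Mature transcript length (nt, log axis) is plotted against the log2 fold change per the authors' deposited table for the 210 coding ZNF genes (59 higher in red, 151 lower in blue) and 6710 other listed coding genes (grey). Red points gather among short transcripts and blue points among long ones, and ZNF555 is the single red point beyond 5536 nt.

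Members with and without a KRAB box were higher in nearly equal shares. A KRAB A-box pattern was found in the translated coding sequence of 126 coding members, of which 35 (27.8%) were higher and 91 lower. Of the 84 without the pattern, 24 (28.6%) were higher and 60 lower. The medians of the log2 fold change were -0.90 and -0.93, and the difference was not tested. Median mature lengths were 3694 nt with the pattern and 4626 nt without it, so the near-equal shares come from groups of unlike length. The pattern misses divergent boxes, so some of the 84 may carry one. By the number of C2H2 finger patterns in the protein, 15 of 31 genes with 0 to 4 fingers were higher (48.4%). The shares were 12 of 52 (23.1%) with 5 to 9 fingers, 22 of 74 (29.7%) with 10 to 14 and 10 of 53 (18.9%) with 15 or more. The median mature length was 3347 nt in the group with fewest fingers and 4513 nt in that with most, so length differs along with finger number, and its part in these shares was not tested. The median number of fingers was 11, and the highest count was 35.

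Chromosome 19 held 92 of the 213 members, of which 28 were higher and 64 lower (30.4% higher). Elsewhere 31 of 121 were higher (25.6%). Among the other listed genes of chromosome 19 the larger share was higher: 336 of 454 (74.0%) were higher, with a median mature length of 1943 nt. No member on chromosomes 3 (10 members), 15 (6), 18 (6), 9 (5), 17 (4), X (4), 20 (3) or 22 (2) was higher. Their members had a median mature length above the 4005 nt of all members, up to 7322 nt on chromosome 18, except on chromosome 9 (3021 nt). The part of length or position in these counts was not tested. Each of chromosomes 1, 8 and 10 had 4 higher among 10 members.

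Members less than 1 Mb apart formed 30 neighbourhoods with 143 genes and 113 adjacent pairs, of which 67 pairs shared a direction and 46 did not. With 72.3% of members lower, pairs of both kinds arise whatever their position, and nothing about neighbours is read from these counts. The largest, at the long-arm end of chromosome 19 (55476332 to 58475436), held 29 members, 9 higher and 20 lower. Its higher members were ZNF547, ZNF524, ZNF580, ZNF460, ZNF274, ZNF530, ZNF416, ZNF419 and ZNF581. ZNF524 was 2.76-fold higher (1.97–3.85) per the authors' deposited table. ZNF460, ZNF530, ZNF416, ZNF419 and ZNF581 ranged from 1.55- to 1.88-fold per the authors' deposited table, all below the fold threshold with equal implied totals. ZNF865, which lies between ZNF524 and ZNF580, was lower at a log2 fold change of -1.10 per the authors' deposited table. ZNF580 and ZNF581 overlap in the annotation, and ZNF419 shares 27.4% of its 50-base words with other genes (17.5% with ZNF773), so these values are uncertain. A second neighbourhood on the long arm (52012765 to 53430413) held 10 members, of which ZNF432, at 2.48-fold (1.83–3.34), and ZNF816, at 2.25-fold (1.44–3.52), were higher per the authors' deposited table. On chromosome 7 (149069643 to 149867479) ZNF425 and ZNF467 rose among 6 lowered members. Runs of at least 3 members that all fell were ZNF248, ZNF25, ZNF33A and ZNF37A on chromosome 10, ZNF619, ZNF620 and ZNF621 as well as ZNF445, ZNF852 and ZNF197 on chromosome 3, and ZNF546, ZNF780B and ZNF780A on chromosome 19.

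**Figure D4:**
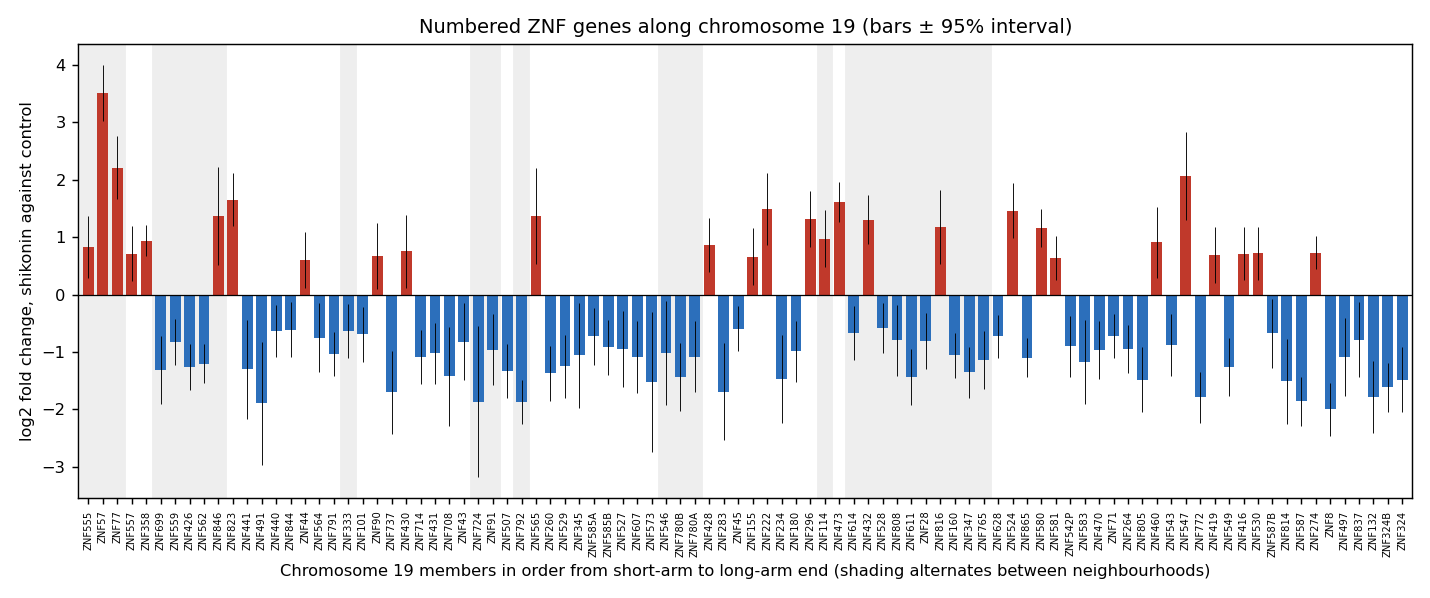
The 92 members on chromosome 19 are drawn in their order along it, each bar giving the log2 fold change per the authors' deposited table with its 95% interval, red for the 28 higher and blue for the 64 lower genes. Red and blue bars stand side by side in the larger shaded neighbourhoods, while the first 5 genes at the short-arm end, ZNF555 to ZNF358, are all higher.

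The neighbourhood at the short-arm end of chromosome 19 (2841435 to 2944971) was the one with 3 members that all rose: ZNF555, ZNF57 and ZNF77. Their promoters are printed because the listed genes here were all higher and include the most raised member and the sole raised long transcript. Neighbourhoods hold listed genes only, so any unlisted ZNF gene of this stretch is left out. ZNF555 rose least, at 1.77-fold, and was below the fold threshold with equal implied totals. Each line runs 5′ to 3′ on the gene's strand from 250 bases before to 50 after the start, from RefSeq (GRCh38.p14), at chr19:2841225-2841524 (plus strand), chr19:2900678-2900977 (plus strand) and chr19:2944922-2945221 (minus strand). The capitals mark CCAAT, the letters of the box bound by the factor NF-Y, searched on both strands (CCAAT or ATTGG).
ZNF555: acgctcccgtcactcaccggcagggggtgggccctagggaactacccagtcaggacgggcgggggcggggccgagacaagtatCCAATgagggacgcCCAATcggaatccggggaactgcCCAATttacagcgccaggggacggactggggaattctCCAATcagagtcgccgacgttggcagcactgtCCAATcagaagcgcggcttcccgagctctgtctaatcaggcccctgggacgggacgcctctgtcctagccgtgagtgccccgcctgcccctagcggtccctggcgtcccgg
ZNF57: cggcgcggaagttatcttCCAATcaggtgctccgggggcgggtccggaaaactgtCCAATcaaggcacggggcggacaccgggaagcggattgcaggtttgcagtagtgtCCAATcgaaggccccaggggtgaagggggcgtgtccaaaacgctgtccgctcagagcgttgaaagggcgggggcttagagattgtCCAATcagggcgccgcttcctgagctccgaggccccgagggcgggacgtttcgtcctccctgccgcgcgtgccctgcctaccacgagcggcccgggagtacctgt
ZNF77: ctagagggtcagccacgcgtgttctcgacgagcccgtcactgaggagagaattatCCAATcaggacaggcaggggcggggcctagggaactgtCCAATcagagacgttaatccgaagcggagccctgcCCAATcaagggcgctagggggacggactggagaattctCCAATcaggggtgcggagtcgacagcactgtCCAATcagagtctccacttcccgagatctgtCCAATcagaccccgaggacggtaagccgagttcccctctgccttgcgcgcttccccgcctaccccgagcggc
The box occurred 5 times in the window of ZNF555, 4 times in that of ZNF57 and 6 times in that of ZNF77. At least 4 occurrences were found in 1.06% of all 27305 promoters of this length. The motif was chosen after these sequences were read, so this share is no test of their counts. Among the 182 members with a promoter in the table, 5 (2.75%) had at least 4: the 3 printed genes, ZNF8 and ZNF862. ZNF8 and ZNF862 fell (log2 fold changes of -2.003 and -1.73 per the authors' deposited table). At least 1 box was present in 27 of 48 higher (56.3%) and 60 of 134 lower members (44.8%), against 35.7% of all promoters. A match is a description of letters and not a measured binding site.

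Motifs of 3 stress pathways and of ZNF143 were searched in the same promoters. The heat shock element letters GAANNTTC occurred in 2 of 48 higher (4.17%) and 5 of 134 lower members (3.73%), against 6.87% of all promoters. The antioxidant response letters TGACNNNGC occurred in 9 higher (18.8%) and 11 lower members (8.21%), against 13.6% of all promoters. The letters TGATGNAA of the element bound by ATF4 and CHOP occurred in 3 higher members (6.25%) and 0 lower ones, against 3.67%. The letters ACTACAA, part of the ZNF143 element, occurred in 2 higher (4.17%) and 8 lower members (5.97%), against 2.95%. Each was searched on both strands, and none of the 4 occurred in the 3 printed windows. Family promoters had a median of 23.5 CpG per window against 14 over all promoters, with 24 in higher and 23 in lower members.

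The KRAB corepressor pathway and its wider chromatin partners held genes of both directions. Of the 32 reported genes in a list of this pathway and these partners, 7 were higher, 12 lower and 13 not listed. TRIM28 and SETDB1 themselves were among the unlisted. Thus 59.4% were listed, against 50.2% of tested genes and 34.7% of annotated coding genes. The list was not limited to tested genes. Of the listed partners 63.2% were lower, against 49.2% of all listed genes. The higher partners had mature lengths of 1308 (H3-3A) to 3965 nt (EHMT2). The lower ones had 4235 (MPHOSPH8) to 11167 nt (ATRX), apart from UHRF1 at 3230 nt. The part of length in these directions was not tested. The SETDB1 cofactor gene ATF7IP was 3.22-fold lower (2.44–4.25; adjusted p = 1.90e-15) per the authors' deposited table, from an implied mean of 1189 to 369. The HUSH complex genes TASOR and MPHOSPH8 were 2.80-fold (2.24–3.50) and 2.23-fold (1.73–2.87) lower, and TASOR2 3.62-fold lower (2.67–4.92), per the authors' deposited table. The chromatin remodelers ATRX, SMARCAD1 and CHD4 were 3.35-fold (2.60–4.32), 2.82-fold (2.09–3.81) and 2.61-fold (2.18–3.13) lower per the authors' deposited table. DNMT1 and its partner UHRF1, which copy DNA methylation, were 1.60-fold (1.31–1.95) and 1.73-fold (1.302–2.29) lower per the authors' deposited table. TRIM24, TRIM33 and the methyltransferase gene EHMT1 were lower as well. The 7 higher genes include SUMO2 and SUMO3, which encode small protein modifiers. SUMO2 and SUMO3 were 2.26-fold (1.85–2.77) and 1.75-fold (1.45–2.12) higher per the authors' deposited table. CBX3, which encodes a heterochromatin protein, the histone genes H3-3A and H3-3B and the histone chaperone gene DAXX were higher by 1.86- to 2.28-fold per the authors' deposited table. EHMT2, which encodes the H3K9 methyltransferase G9a, rose 2.99-fold (2.14–4.18) per the authors' deposited table, whereas its partner EHMT1 was 1.69-fold lower (1.39–2.04). With equal implied totals SUMO3, CBX3, DAXX and H3-3B fell below the fold threshold.

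**Figure D5:**
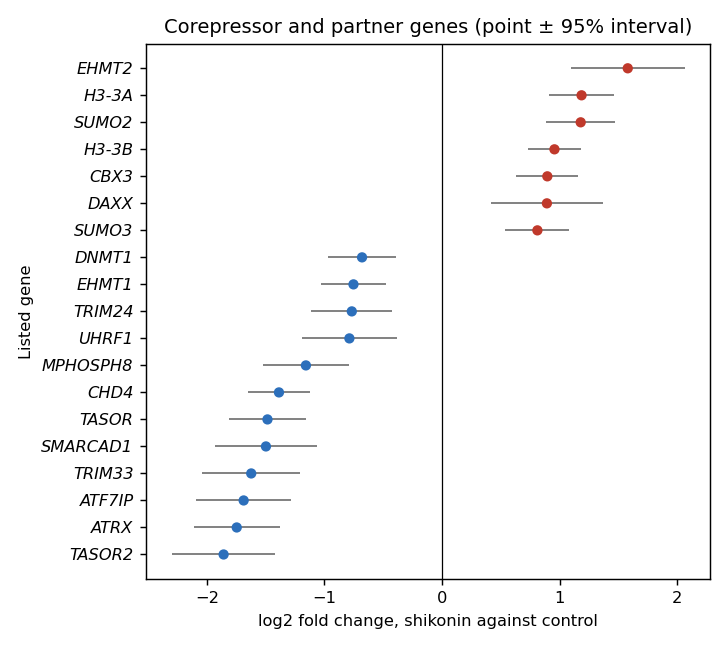
Points give the log2 fold change per the authors' deposited table, with its 95% interval, for 19 listed genes of the KRAB corepressor and partner list. EHMT2, SUMO2, SUMO3 and the H3.3 histone genes lie on the higher side, and TASOR2, ATRX and ATF7IP lie lowest.

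Other families named for zinc fingers are given for comparison, beside 49.2% lower among all listed genes. Of 21 listed ZBTB genes, which pair zinc fingers with a BTB domain, 20 were lower and ZBTB2 alone was higher, with a median mature length of 6170 nt. Listed ZFP genes were 6 lower and 1 higher (median length 4010 nt), the latter being ZFP36, which encodes the unrelated RNA-decay factor tristetraprolin. All 3 listed ZKSCAN genes and all 6 listed ZC3H genes, named for another type of finger, were lower, with median lengths of 7523 and 6014 nt. ZSCAN genes were 3 and 3, Krüppel-like factors 5 higher and 6 lower, and the ZDHHC palmitoyltransferases, which share only the name of the finger, 3 higher and 7 lower, with median lengths of 3956, 4030 and 3191 nt.

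Sequence likeness limits some single values. At least 20% of the 50-base words of the reference transcript were shared with another gene in 17 members, and at least 20% of exon bases overlapped another gene in 27, together 32 members. The most affected were ZNF365, ZNF23 (98.1% of words), ZNF564 (84.7%) and ZNF286A (68.9%, of which ZNF286B alone holds 54.8% of all words). Among the named genes ZNF8 shared 22.2% of its words. Without these 32 members, 133 were lower and 48 higher, or 73.5% lower. How the authors' counting treated shared reads, and whether it used strand, was not stated in the sources used here.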

How the data were processed

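Libraries of 3 control and 3 shikonin samples were made with an NEBNext Ultra kit, per the labels' protocols. Tools listed in the submitters' processing notes are fastp, HISAT2 (2.0.5) and DESeq2, with the build hg38. Which program counted reads, and over which annotation, remains not given in the sources used here. Per the file headers, the authors deposited a mean signal for each gene (normalized count averaged across the 6 libraries). They also deposited a log2 fold change with standard error, a Wald score, a p-value and an adjusted p-value. The sign of the fold change matched the authors' mark in all 7150 genes, and positive values, marked "up", are read as higher in shikonin. The table has no per-sample values, so no test was run here, depth is unknown, and every call is the authors' DESeq2 call.

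Intervals at 95% are 1.96 standard errors on the log2 scale. Implied group means assume equal weight of 3 and 3 libraries. Rank, p and adjusted p together gave the implied number of tested genes. Of the calculations, the implied means, the implied number of tested genes and the finger count were tested on simulated inputs. GENCODE 29 (GRCh38) gave positions, lengths and coding sequences, matched by Ensembl identifier for 213 of 213 members. Fingers and KRAB boxes were counted by patterns in its translated coding sequences, where a RefSeq protein had been planned, and the KRAB pattern was widened after first results. Promoters came from RefSeq (GRCh38.p14), with 182 members matched by symbol. A further 4 listed genes have a numbered ZNF symbol in GENCODE but none in the table and are not members. Their log2 fold changes per the authors' deposited table were 0.97 (ZNF826P), 1.56 (ZNF137P), 1.23 (ZNF204P) and -1.13 (ZNF788P). From the list of corepressor partners 2 genes are not reported here. Python 3.11.15 and pandas 2.3.3 were used.

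Members and lists were chosen with earlier results of these data known. Named genes were the 8 in each direction whose interval bound lay farthest from 0, the 5 with the highest mean count, a list of members with known roles, those nearest the fold threshold, and the minority side of each chromosome 19 neighbourhood with at least 10 members. Alternatives were a mean count of at least 100, an adjusted p below 0.001, at least 2-fold, equal implied totals, coding members alone and, added after the data were seen, low read sharing and another reference transcript.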

Additional observations from a re-analysis of the deposited data

How the results depend on the processing

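Lower members outnumbered higher ones under every alternative run: a mean count of at least 100 (48 higher, 122 lower), an adjusted p below 0.001 (37 and 100), at least 2-fold (31 and 98), equal implied totals (31 and 154), coding members alone (59 and 151) and low read sharing (48 and 133). By construction the stricter thresholds only remove members. Equal implied totals gave a median log2 fold change of -1.32 for the members. Under that scaling the higher count was 18 with a KRAB pattern, 13 without it, 13 on chromosome 19 and 18 elsewhere, and only higher genes can leave a count, since unlisted genes that would enter as lower are not held. Of 49 named members 38 stayed past the fold threshold with equal implied totals, 11 higher ones did not, and 0 changed sign. No paired analysis was possible because the table holds no per-sample values. For the same reason the fits leaving out a replicate, the edgeR fit and other filters on counts were not run. A fold in a member near the lowest mean counts rests on few reads.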
